A study of Homo sapiens with 12 samples.

Results

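Receptors and SMAD proteins of bone morphogenetic protein (BMP) and transforming growth factor beta (TGF-beta) signalling, together with the osteoblast transcription factor RUNX2, were followed through the 4 groups of a human exon array study. The 10 genes are BMPR1A, BMPR2, ACVR1, ACVR2A, TGFBR1, TGFBR2, SMAD2, SMAD4, SMAD5 and RUNX2. Members were taken as the probe sets whose only gene symbol is 1 of these 10, which gave 211 of the 357604 probe sets with a single symbol, on arrays of 1411399 probe sets. Of the 211, 180 had a mean above the dim limit, which is the median of all probe sets (2.04 on the log2 scale), and 31 did not. Gene values, the mean log2 value of the probe sets above the limit, could be formed for all 10 members among 16883 genes. They rest on between 12 probe sets (RUNX2) and 23 (BMPR1A and BMPR2).

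RNA came from the cytoplasm of U2OS, an osteosarcoma cell line of human origin, in which K294A is stably expressed under doxycycline control. The title of the series concerns substrates of the cytoplasmic capping enzyme complex, and from the literature K294A is known as a form of capping enzyme without catalytic activity. There are 4 groups of 3 arrays: induced cells (doxycycline at 1 ug/ml for 24 h) with their RNA treated with Xrn1, induced cells with untreated RNA, uninduced cells with RNA treated with Xrn1, and uninduced cells with untreated RNA. Xrn1, an exonuclease that degrades RNA from an unprotected 5' end and is held back by a cap, was applied in vitro to RNA already depleted of ribosomal RNA. All groups are of the same stable line, in which RNGTT, the cell's own capping enzyme gene, had a difference, induced minus uninduced, of 0.21 (log2) in untreated RNA (adjusted p = 0.685). The arrays were not shown to tell K294A from the cell's own transcript, so RNGTT is no check of the induction. The labels call the replicates biological but do not describe separate cultures, so each p rests only on the spread between these samples. For gene values as deposited that spread was pooled over all genes into a common SD of 0.42, not taken from each gene alone. Gene levels are log2 array values throughout, and an adjusted p is that of limma's moderated test after Benjamini-Hochberg adjustment over all genes, with a threshold of 0.05. In such material a smaller share of cells with a transcript and less transcript per cell cannot be told apart.

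BMP and TGF-beta ligands are dimers that bring together type II and type I receptor kinases. The type II kinase phosphorylates the type I kinase, which then phosphorylates the receptor-regulated SMAD proteins. Broadly, SMAD2 and SMAD3 carry signals from TGF-beta and activin and SMAD1, SMAD5 and SMAD8 carry those from BMPs, and both kinds join SMAD4 before they act in the nucleus. In bone-forming cells BMP signalling induces RUNX2, which is required for osteoblast differentiation and binds a short core motif.

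The sequence just before each annotated gene start is shown for 3 members, because these regions differ in composition. They lie before the annotated start and so are no part of the annotated transcript. The windows hold 250 bases, 5' to 3', from RefSeq on GRCh38.p14, in which all 10 members were matched. The windows of SMAD2 at chr18:47930873-47931122 on the minus strand and TGFBR2 at chr3:30606106-30606355 on the plus strand have their CpG dinucleotides in capitals.
SMAD2: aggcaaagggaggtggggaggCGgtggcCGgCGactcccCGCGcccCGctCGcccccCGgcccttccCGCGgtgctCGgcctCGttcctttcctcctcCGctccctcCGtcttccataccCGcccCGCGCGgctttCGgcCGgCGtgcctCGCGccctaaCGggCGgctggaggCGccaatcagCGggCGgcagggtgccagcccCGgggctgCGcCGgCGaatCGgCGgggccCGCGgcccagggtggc
TGFBR2: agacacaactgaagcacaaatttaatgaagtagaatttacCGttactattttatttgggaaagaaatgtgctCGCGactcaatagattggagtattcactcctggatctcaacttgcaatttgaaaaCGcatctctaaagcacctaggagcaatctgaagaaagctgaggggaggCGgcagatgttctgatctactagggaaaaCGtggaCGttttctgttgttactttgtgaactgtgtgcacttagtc
The SMAD2 window holds 36 CpG and has a GC content of 78.4%, against 7 CpG and 40.8% in the TGFBR2 window. The RUNX2 window at chr6:45328080-45328329 on the plus strand has the RUNX core motif in capitals (TGTGGT, or ACCACA on the other strand).
RUNX2: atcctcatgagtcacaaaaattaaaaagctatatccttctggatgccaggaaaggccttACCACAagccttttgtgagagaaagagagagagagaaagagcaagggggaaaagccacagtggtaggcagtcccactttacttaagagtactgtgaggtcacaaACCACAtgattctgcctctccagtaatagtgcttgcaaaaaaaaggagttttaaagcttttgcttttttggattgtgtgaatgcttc
It holds 2 matches and no CpG. At least 1 match was found in 10.9% of the 27305 windows of this length in the RefSeq table, and a match is a description of the letters, not evidence of binding.

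Before the results, a feature of the deposited table has to be given, because it moves with them. Along the table, ordered by probe set number, the level of several arrays relative to the others changed abruptly after row 650744. For the Xrn1 and untreated arrays of uninduced replicate 2 (samples CM5X and CM5), the median difference, coded as untreated minus Xrn1, was -1.21 in the 100 probe sets before that row and 0.97 in the 100 after it. Over the whole segments it was -1.28 in the first and 1.06 in the second. Against the mean of the 12 arrays, the median deviation of uninduced untreated replicate 2 was -0.72 in the first segment and 0.56 in the second, and that of induced untreated replicate 2 was 0.47 and then -0.60. A short stretch near the end of the table, in the window from row 1400001, went back to the order of the first segment and holds no member.

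**Figure D1:**
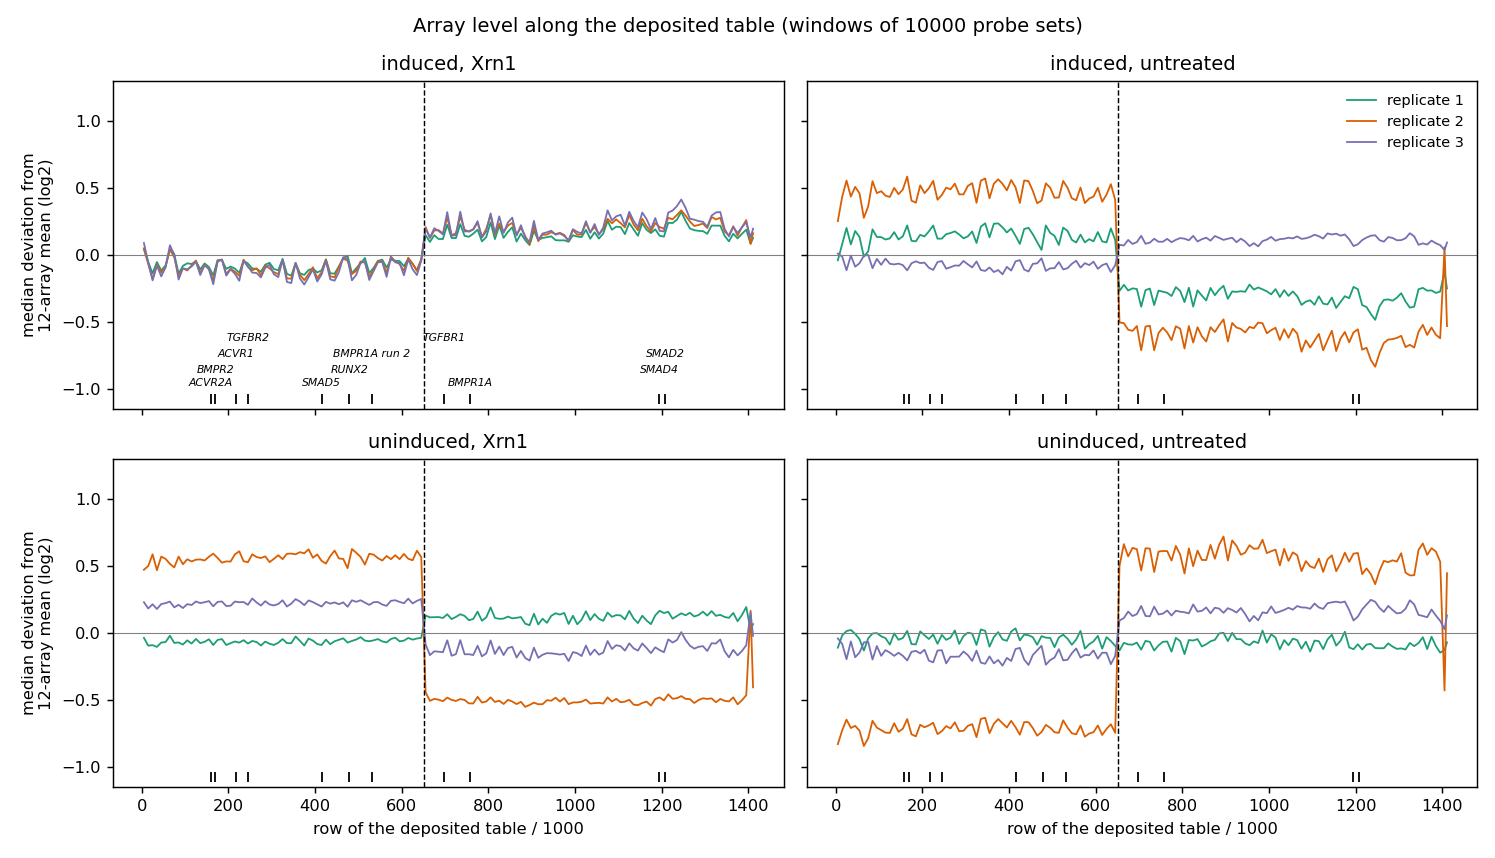
Median deviation of each array from the 12-array mean (log2, vertical axis) in windows of 10000 probe sets along the deposited table (row divided by 1000, horizontal axis), 1 panel for each group and 1 line for each replicate. The dashed line marks row 650744, ticks mark the 10 genes, and replicate 2 of the untreated groups and of uninduced Xrn1 changes level most at the line.

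BMPR2, ACVR1, ACVR2A, TGFBR2, SMAD5 and RUNX2 lie in the first segment, and TGFBR1, SMAD2, SMAD4 and most probe sets of BMPR1A lie in the second. The gene results of the members are therefore given for the deposited values and again after quantile normalisation of the 12 arrays within each segment, a step chosen after the break was seen. With it the median SD of a gene within groups was 0.24, against 0.39 in the deposited values. The correlation between replicates over all genes was between 0.71 and 0.92 in uninduced Xrn1 in the deposited values and between 0.91 and 0.94 with segments normalised. What produced the break was not tested. The 8 markers of mesenchymal and osteoblast cells had a median level of 5.10, against 2.97 for the 14 measured markers of other cell types and 3.36 for all genes.

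The first question was how each transcript's signal, relative to the rest of the array, changed when RNA was exposed to Xrn1. All 10 members had lower means with Xrn1 than without it, in induced and in uninduced cells. The change stayed negative for every member in both under each alternative run. In the deposited values 8 of 10 fell in induced cells, where 17.8% of all genes were called lower, and 8 of 10 fell in uninduced cells, where 31.8% were. Over both kinds of cell 9 of 10 fell, against 29.8% of all genes. With segments normalised, 9 of 10 fell in induced cells (25.3% of all genes), 10 of 10 in uninduced cells (37.3%) and 10 of 10 over both (36.1%). The median level of all genes (3.36) was near that of the markers of other cell types (2.97). Falls were called at such levels too: USP15, with a mean level of 2.60, fell by 1.21 over both kinds of cell (adjusted p = 4.12e-06). How far a low level limits a measured fall was not tested. Untreated means of BMPR2, BMPR1A and TGFBR1 lay between 5.25 and 7.01. Shares among genes of like level were not computed. The median change of the members over both kinds of cell was -1.21 (log2), while that of all genes was 0.05. The arrays were normalised before deposit, with array medians between 2.09 and 2.25, so every Xrn1 change is relative to the other signal on the array. A loss shared by all RNA would not show, and the median of all genes is no measure of RNA lost. The receptors BMPR1A, TGFBR1 and BMPR2 changed most and RUNX2 least. With the spread of each gene alone in place of the shared one, BMPR1A, BMPR2 and TGFBR1 fell in induced cells in the deposited values, and these 3 with SMAD2 and SMAD4 in uninduced cells. On that basis with segments normalised 7 of 10 fell in induced cells and 10 of 10 in uninduced cells. Scaling of whole arrays also moved the calls in uninduced cells: with cyclic loess between arrays ACVR1, TGFBR2, SMAD5 and RUNX2 had changes between -0.40 and -0.09 there and did not pass.

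**Figure D2:**
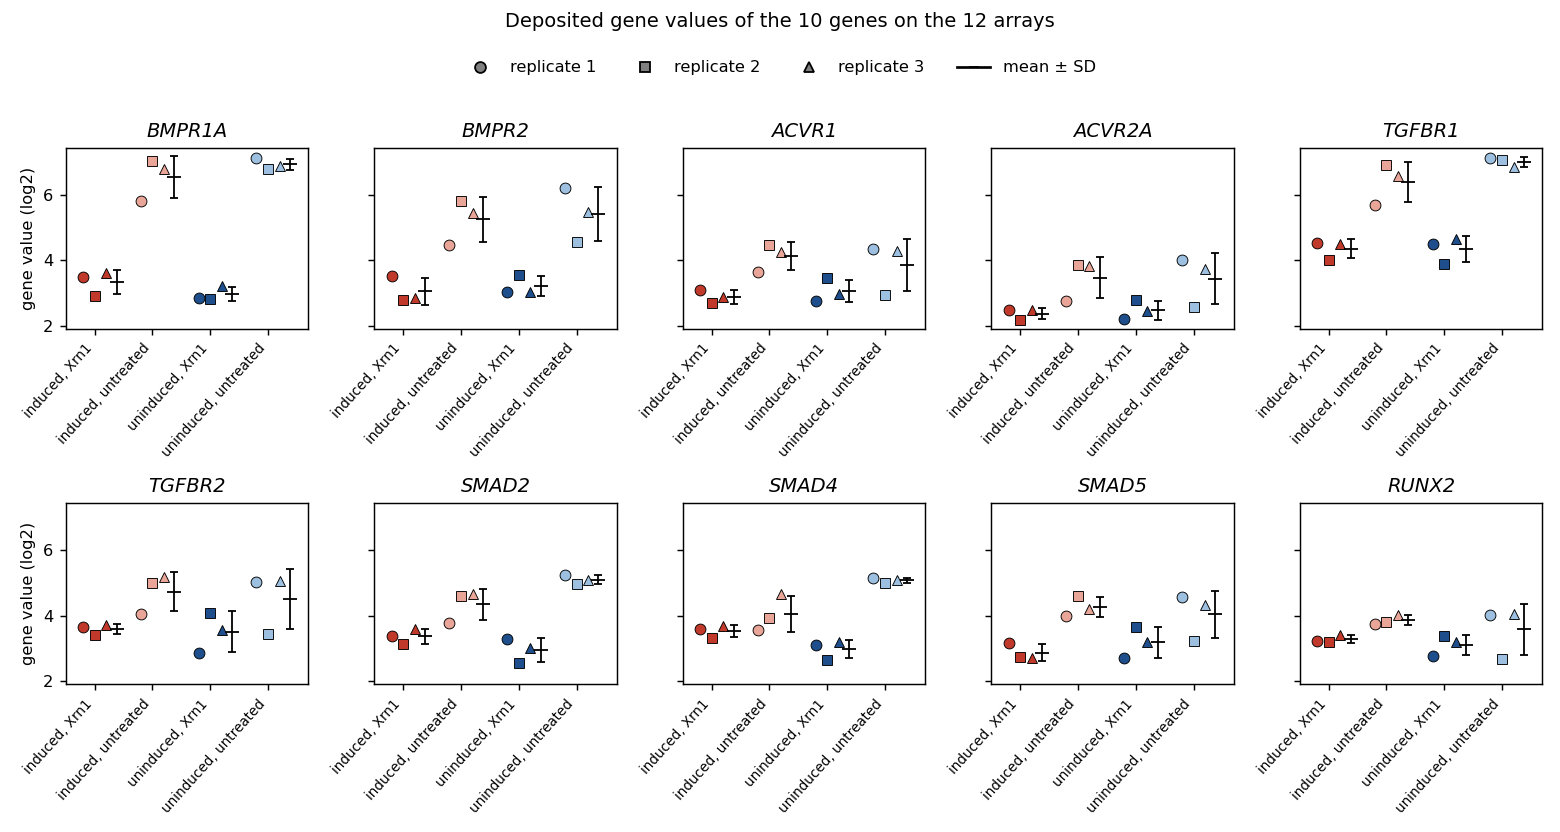
Deposited gene values (log2, vertical axis) of the 10 genes on the 12 arrays, by group; symbols are replicates 1 to 3 and bars the mean with its SD. Xrn1 arrays lie below untreated ones for most genes, and uninduced untreated replicate 2 is the lowest of its group for every gene but TGFBR1.

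BMPR1A, a type I receptor for BMPs, had 3.49, 2.92 and 3.61 (log2) in induced Xrn1 arrays, against 5.80, 7.03 and 6.80 in induced untreated arrays. Uninduced cells gave 2.87, 2.83 and 3.21 with Xrn1, against 7.11, 6.79 and 6.90 without. All 6 Xrn1 arrays lay well below all 6 untreated ones. The change was -3.20 in induced cells (adjusted p = 2.26e-17) and -3.97 in uninduced cells (adjusted p = 1.41e-27), or 9.22-fold and 15.6-fold lower. Among the 16883 genes, ordered from the most negative change, BMPR1A stood at place 5 in induced cells and at place 4 in uninduced cells. With segments normalised it was -3.33 and -3.73.

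The probe sets named BMPR1A fall into 2 runs of numbers. One, with 15 probe sets above the dim limit, lies in the second segment of the table. The other, with 8, lies in the first segment between PTPRK and ARHGAP18, genes of chromosome 6, where RefSeq lists the pseudogene BMPR1AP1, whereas BMPR1A itself is on chromosome 10. In induced cells the mean change was -2.94 in the run of 15 and -3.69 in the run of 8, and in uninduced cells it was -4.03 and -3.85. Signal from the gene and from the pseudogene cannot be separated here, and BMPR1A is uncertain to that extent. Without the 8 probe sets the adjusted p was 7.53e-15 in induced cells and 1.89e-28 in uninduced cells.

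BMPR2, the type II receptor that pairs with BMPR1A and whose loss of function causes heritable pulmonary arterial hypertension, had 3.53, 2.79 and 2.86 in induced Xrn1 arrays, against 4.48, 5.83 and 5.45 in untreated ones. The uninduced values were 3.04, 3.56 and 3.05 with Xrn1, against 6.20, 4.56 and 5.49 without. Neither pair of groups overlapped. The change was -2.19 in induced cells (adjusted p = 1.11e-08) and -2.20 in uninduced cells (adjusted p = 2.15e-09). With segments normalised it was -1.88 and -2.41.

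ACVR1, a type I receptor for BMPs and activins that is mutated in fibrodysplasia ossificans progressiva, had 3.09, 2.68 and 2.88 in induced Xrn1 arrays, against 3.65, 4.48 and 4.25 in untreated ones. In uninduced cells it had 2.77, 3.45 and 2.99 with Xrn1, against 4.36, 2.94 and 4.29 without. The induced groups did not overlap, and the uninduced ones did, through replicate 2, in which the Xrn1 array was the higher of the pair. ACVR1 fell by 1.24 in induced cells (adjusted p = 0.00202). In uninduced cells the change was -0.80 (adjusted p = 0.0503) in the deposited values and -1.45 (adjusted p = 0.00165) without replicate 2 of both uninduced groups. With segments normalised ACVR1 fell in both, by 0.93 (adjusted p = 0.000899) and 1.12 (adjusted p = 7.38e-05).

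ACVR2A, a type II receptor for activins that some BMPs also use, had 2.48, 2.17 and 2.48 in induced Xrn1 arrays, against 2.75, 3.85 and 3.82 in untreated ones. Uninduced cells gave 2.21, 2.79 and 2.44 with Xrn1, against 4.01, 2.56 and 3.75 without. The induced groups did not overlap and the uninduced groups did, again through replicate 2. ACVR2A fell by 1.10 (adjusted p = 0.00657) in induced cells and by 0.96 (adjusted p = 0.0157) in uninduced cells. Neither call held in every leave-one-out fit of the deposited values: without untreated replicate 2 of the induced cells the adjusted p was 0.0733, and without untreated replicate 1 of the uninduced cells it was 0.16. The change in induced cells was -0.71 (adjusted p = 0.176) with the median of probe sets. That in uninduced cells was -0.60 (adjusted p = 0.0948) with arrays centred on the median gene. With segments normalised the changes were -0.77 (adjusted p = 0.0129) and -1.39 (adjusted p = 5.15e-05). On the gene's own spread the first of these had an adjusted p of 0.0615.

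TGFBR1, the type I receptor for TGF-beta, had 4.53, 4.01 and 4.51 in induced Xrn1 arrays, against 5.70, 6.91 and 6.57 in untreated ones. The uninduced values were 4.49, 3.89 and 4.66 with Xrn1, against 7.13, 7.06 and 6.85 without. Neither pair of groups overlapped, and the gap was wider in uninduced cells. TGFBR1 fell by 2.04 (adjusted p = 1.22e-07) in induced cells and by 2.67 (adjusted p = 2.69e-13) in uninduced cells, and by 2.29 and 2.27 with segments normalised.

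TGFBR2, the type II receptor that binds TGF-beta first, had 3.65, 3.41 and 3.73 in induced Xrn1 arrays, against 4.05, 4.99 and 5.17 in untreated ones. In uninduced cells it had 2.86, 4.10 and 3.58 with Xrn1, against 5.02, 3.46 and 5.06 without. Only the uninduced groups overlapped, with the untreated array of replicate 2 below 2 of the 3 Xrn1 arrays. TGFBR2 fell by 1.14 (adjusted p = 0.00466) in induced cells and by 1.00 (adjusted p = 0.0119) in uninduced cells. In the deposited values the change in induced cells was -0.93 (adjusted p = 0.0802) without untreated replicate 3. The change in uninduced cells was -0.67 (adjusted p = 0.162) without Xrn1 replicate 1 and -1.82 without replicate 2 of both uninduced groups. It was -0.28 (adjusted p = 0.486) with cyclic loess between arrays and -0.64 (adjusted p = 0.0969) with arrays centred on the median gene. With segments normalised the changes were -0.84 (adjusted p = 0.00889) and -1.19 (adjusted p = 0.000367).

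SMAD2, which carries TGF-beta and activin signals, had 3.39, 3.14 and 3.58 in induced Xrn1 arrays, against 3.79, 4.59 and 4.66 in untreated ones. Uninduced cells gave 3.29, 2.56 and 3.03 with Xrn1, against 5.24, 4.96 and 5.09 without. Neither pair of groups overlapped. SMAD2 fell by 0.98 (adjusted p = 0.0157) in induced cells and by 2.14 (adjusted p = 6.24e-09) in uninduced cells. Without Xrn1 replicate 2 of the induced cells the change there was -0.86 (adjusted p = 0.0957). With segments normalised the changes lay nearer each other, at -1.35 and -1.66.

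SMAD4, the partner shared by both branches, had 3.61, 3.33 and 3.69 in induced Xrn1 arrays, against 3.57, 3.94 and 4.66 in untreated ones. The uninduced values were 3.11, 2.65 and 3.19 with Xrn1, against 5.16, 5.00 and 5.09 without. The induced groups overlapped and the uninduced ones were far apart. The change was -0.51 in induced cells (adjusted p = 0.232), while SMAD4 fell by 2.10 in uninduced cells (adjusted p = 1.3e-08). With segments normalised SMAD4 fell in both, with changes of -0.92 (adjusted p = 0.000343) in induced cells and -1.62 (adjusted p = 2.01e-07) in uninduced cells.

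SMAD5, which carries BMP signals, had 3.16, 2.75 and 2.72 in induced Xrn1 arrays, against 3.99, 4.59 and 4.21 in untreated ones. In uninduced cells it had 2.72, 3.67 and 3.20 with Xrn1, against 4.58, 3.24 and 4.33 without. The uninduced groups overlapped through replicate 2 and the induced groups did not. SMAD5 fell by 1.39 (adjusted p = 0.000524) in induced cells and by 0.85 (adjusted p = 0.0355) in uninduced cells, and by 1.08 and 1.14 with segments normalised. In the deposited values the change in uninduced cells was -0.58 (adjusted p = 0.233) without untreated replicate 1. It was -0.49 (adjusted p = 0.182) with arrays centred on the median gene and -0.72 (adjusted p = 0.183) with the median of probe sets. The call in uninduced cells held in 18 of 30 alternatives.

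RUNX2 had 3.24, 3.21 and 3.42 in induced Xrn1 arrays, against 3.76, 3.81 and 4.04 in untreated ones. Uninduced cells gave 2.77, 3.38 and 3.20 with Xrn1, against 4.03, 2.68 and 4.05 without. The induced groups lay close together without overlapping, and the uninduced ones overlapped because the untreated array of replicate 2 was the lowest of all 12. In the deposited values the change was -0.58 in induced cells (adjusted p = 0.169), -0.47 in uninduced cells (adjusted p = 0.276) and -0.53 over both (adjusted p = 0.0633). With segments normalised the change was -0.28 in induced cells (adjusted p = 0.21), and RUNX2 fell by 0.81 in uninduced cells (adjusted p = 0.000905) and by 0.54 over both (adjusted p = 0.00109). Without replicate 2 of both uninduced groups it fell by 1.06 in uninduced cells (adjusted p = 0.00745) in the deposited values.

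**Figure D3:**
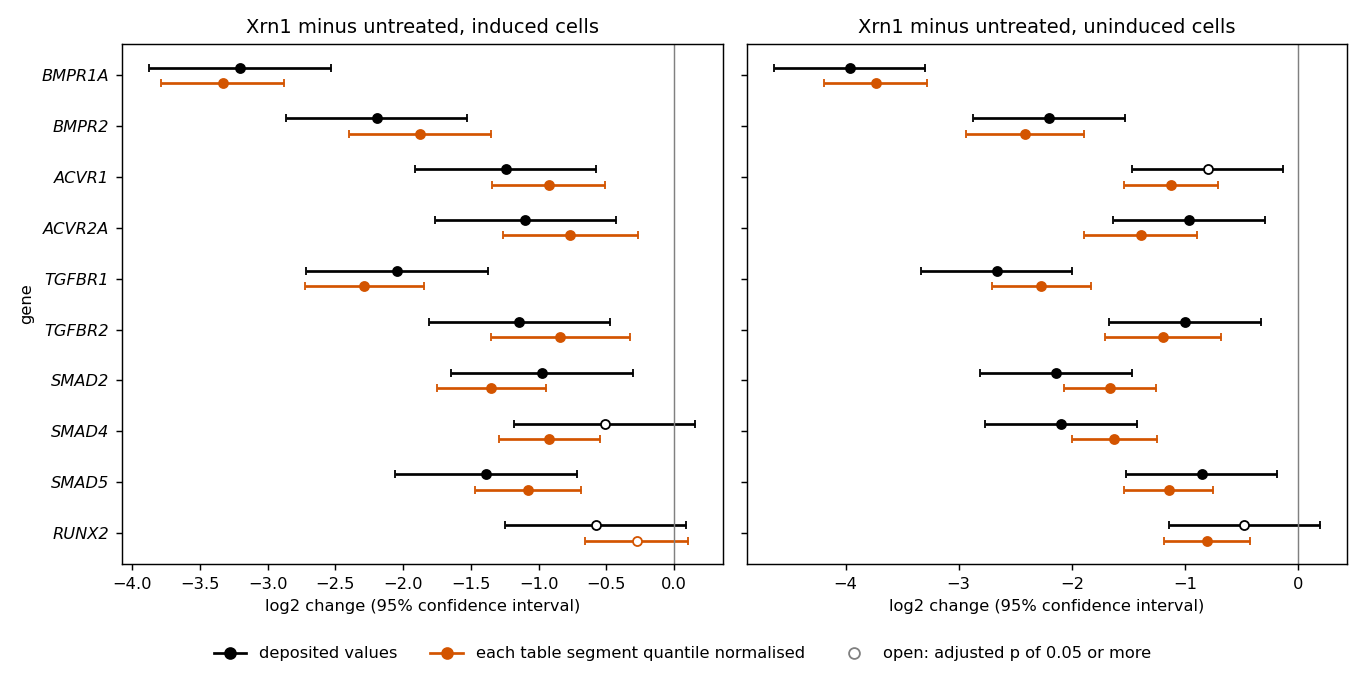
Change with Xrn1 (log2, horizontal axis, with its 95% confidence interval) of each gene in induced cells (left) and uninduced cells (right); black points are deposited values, orange points are values with each table segment quantile normalised, and open points did not pass the threshold of 0.05. All points lie left of 0, from -3.97 for BMPR1A to -0.28 for RUNX2.

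Counted by overlap, 9 of 10 members had all induced Xrn1 arrays below all induced untreated arrays, against 22.6% of all genes. In uninduced cells 5 of 10 did, against 33.6%. With segments normalised these counts were 8 of 10 (25.8% of all genes) and 10 of 10 (40.5%).

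No member passed the test for a change with induction of K294A. In untreated RNA the induced-minus-uninduced changes ran from -1.03 (SMAD4, adjusted p = 0.11) to 0.28 (RUNX2, adjusted p = 0.562), and 0 of 10 passed in limma's test, against 0.0415% of all genes. SMAD4 and SMAD2 were the 2 members with an unadjusted p under 0.05, as were 30.8% of all genes. Without untreated replicate 3 of the induced cells both passed, SMAD4 with -1.33 (adjusted p = 0.00747) and SMAD2 with -0.91 (adjusted p = 0.0293), as did 6922 of all 16883 genes. The 95% confidence interval of the SMAD4 change was -1.69 to -0.36. In Xrn1-treated RNA the changes ran from -0.32 (SMAD5, adjusted p = 0.646) to 0.56 (SMAD4, adjusted p = 0.542), and 0 of 10 passed, against 0.0592% of all genes. No member had an unadjusted p under 0.05 there, as 9.09% of all genes did. The induced and uninduced groups did not overlap for SMAD2 and SMAD4 in untreated RNA, where 23.2% of all genes did not overlap, and for SMAD4 alone in Xrn1-treated RNA, where 34.4% did not. With segments normalised no member and 0.0% of all genes passed in untreated RNA. The SMAD4 change was then -0.50 (adjusted p = 0.509), and all 10 changes were negative, between -0.50 and -0.11. SMAD4 was then the 1 member with an unadjusted p under 0.05, as were 9.58% of all genes. In Xrn1-treated RNA with segments normalised, no member passed, against 0.077% of all genes, and the highest change was 0.42 for RUNX2 (adjusted p = 0.673), the 1 member with an unadjusted p under 0.05, as were 6.91% of all genes.

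Whether the Xrn1 effect differed with induction was tested as the difference between both Xrn1 effects. Among all genes 21.8% passed in either direction. SMAD4 was the member that passed, with a difference of 1.58 in the deposited values (adjusted p = 0.0217), where a positive value stands for a smaller fall in induced cells. SMAD2 had 1.16 (adjusted p = 0.0603). In the deposited values 20.6% of all genes passed with a positive difference, and of these 3479 genes 3474 lie in the second table segment, as SMAD4 and SMAD2 do. That segment holds 9621 genes, whose median difference was 1.11, so much of a positive value there is shared with other genes. With segments normalised 0.118% of all genes passed with a positive difference and no member did. The difference was then 0.70 for SMAD4 (adjusted p = 0.213) and 0.31 for SMAD2 (adjusted p = 0.581). Without replicate 2 of both uninduced groups the SMAD4 difference was 1.46 (adjusted p = 0.133) in the deposited values. Without Xrn1 replicate 2 of the uninduced cells alone it was 1.42 (adjusted p = 0.106), and without untreated replicate 1 of the induced cells 1.34 (adjusted p = 0.0973).

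Single probe sets were tested among all 705699 above the dim limit, of which 258175 carry a single gene symbol, as all 180 of the members do. The shares of all probe sets given here thus include those with no symbol or several. Shares among probe sets with a single symbol were not computed. In induced cells 81 of the 180 member probe sets fell with Xrn1, where 5.52% of all did, and 3 rose. In uninduced cells 93 fell, where 10.8% of all did, and 1 rose. Over both kinds of cell 120 fell, against 11.4% of all, and 6 rose. With segments normalised 83 fell and 2 rose in induced cells (6.46% of all fell), 116 fell and 3 rose in uninduced cells (11.2%), and 122 fell and 6 rose over both (12.5%). By gene in the deposited values, 22 of 23 BMPR1A probe sets, 21 of 23 for BMPR2, 12 of 14 for TGFBR1, 13 of 21 for SMAD2 and 12 of 19 for SMAD4 fell over both. The count was 11 of 18 for ACVR1, 9 of 18 for ACVR2A, 9 of 18 for SMAD5, 8 of 14 for TGFBR2 and 3 of 12 for RUNX2. Of the 6 that rose, 2 belong to SMAD2, 2 to SMAD4, 1 to ACVR1 and 1 to TGFBR1, and 5 of them lie in the 5' part of their gene, the first of 3 equal parts of its probe sets.

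That position was examined for all members. Probe sets were ordered from the 5' end by their number and the strand of the gene, and the change of the 5' part was set against that of the rest, both within the same array, so that a shift of a whole segment cancels, with adjustment over the 11300 genes that could be split. For SMAD4 the 6 probe sets of the 5' part averaged 4.43 in induced Xrn1 arrays against 3.46 in untreated ones, and 4.11 against 4.54 in uninduced cells. The other 13 averaged 3.13 against 4.33 in induced cells and 2.47 against 5.33 in uninduced cells. In the deposited values the 5' part of SMAD4 thus changed by 0.97 and -0.43, while the rest changed by -1.20 and -2.86. A segment shift cancels in the difference between the parts but not in the change of 1 part. In induced cells the changes of these 6 probe sets ran from -2.07 to 2.34, and from -2.54 to 1.92 with segments normalised. In uninduced cells they ran from -3.23 to 1.20, and from -2.67 to 1.61 with segments normalised. The difference between them over both kinds of cell was 2.30 (adjusted p = 0.000358).

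**Figure D4:**
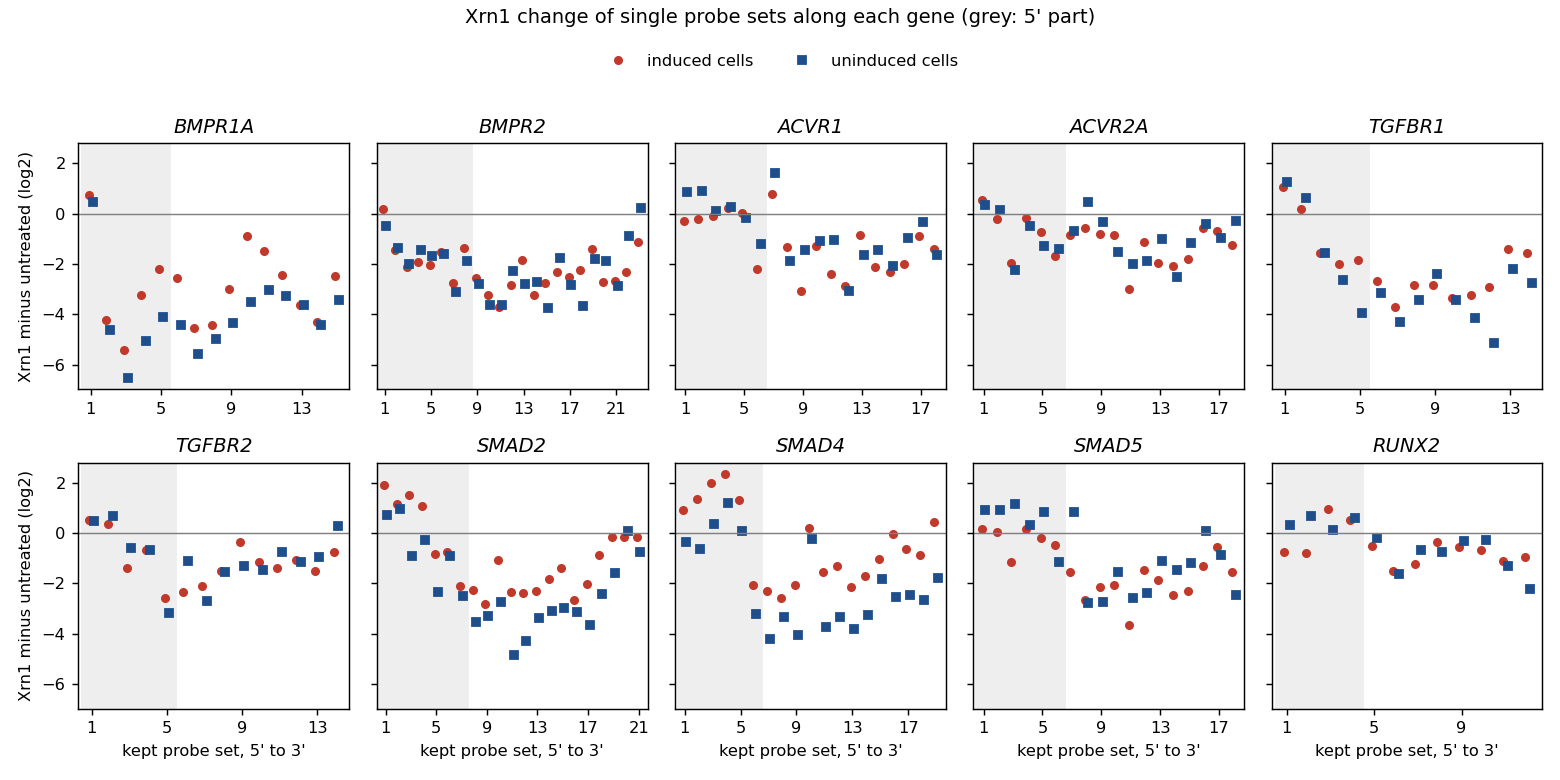
Change with Xrn1 (log2, vertical axis) of each probe set above the dim limit, in order from the 5' end (horizontal axis), in induced cells (circles) and uninduced cells (squares), with the 5' part shaded. In SMAD2, SMAD4, SMAD5, ACVR1 and TGFBR1 the first probe sets lie near or above 0 and most later ones below it.

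The pattern recurred in most members. TGFBR1 changed by -1.05 in its 5' part and by -3.08 in the rest over both kinds of cell, a difference of 2.04 (adjusted p = 1.22e-05). For SMAD2 the values were -0.24 and -2.21 (difference 1.97, adjusted p = 1.35e-05), and for SMAD5 they were 0.12 and -1.74 (difference 1.87, adjusted p = 3.25e-06). Single probe sets of the 5' part ran from -2.90 to 1.16 in TGFBR1, from -2.31 to 1.31 in SMAD2 and from -0.80 to 0.53 in SMAD5. In TGFBR1 and SMAD2 the lowest of them was near the change of the rest. The 5' part of SMAD5 had 2.76 in induced Xrn1 and 3.0 in induced untreated arrays, and 3.04 and 2.55 in uninduced ones. It thus lay near the median of the markers of other cell types (2.97) with and without Xrn1. Whether so low a level limits a measured fall was not tested, so the part of position in the SMAD5 difference is uncertain. ACVR1 had -0.15 and -1.46 (difference 1.31, adjusted p = 8.67e-06). For RUNX2, with 4 probe sets in the 5' part and 8 in the rest, the changes were 0.20 and -0.89 (difference 1.09, adjusted p = 0.000551). The 5' parts of ACVR1 and RUNX2 were also low, between 3.11 and 3.83 in the 4 groups, where the highest of these markers had 4.16. In induced untreated arrays the 5' parts of SMAD4 (3.46), SMAD2 (3.84) and ACVR2A (3.55) lay below that marker as well. Smaller differences passed for BMPR2 (0.83, adjusted p = 0.00163) and TGFBR2 (0.56, adjusted p = 0.00386). ACVR2A had 0.40 (adjusted p = 0.0541). BMPR1A, read from its run of 15 alone, had 0.10 (adjusted p = 0.597), with a change of -3.42 in the 5' part and -3.52 in the rest.

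In all, 8 of 10 members had a positive difference that passed over both kinds of cell, against 42.9% of the 11300 genes. In induced cells 8 of 10 passed (28.8% of genes) and in uninduced cells 8 of 10 (34.1%). Each of these counts includes SMAD5, ACVR1 and RUNX2, whose 5' parts were low, and whether that level affects their differences was not tested. With the spread of each gene alone 6 of 10 passed in induced cells, without SMAD4 (adjusted p = 0.0579) and RUNX2 (adjusted p = 0.0817), and 8 of 10 in uninduced cells and over both. The median difference of all these genes was 0.36, below that of every member but BMPR1A. Without its 5' part, every member fell with Xrn1 in both kinds of cell, as did 26.7% of the 11300 genes in induced cells and 42.0% in uninduced cells. That fit was chosen after the 5' parts were seen and leaves out the probe sets that had fallen least in most members, so it is a description. RUNX2 then fell by 0.86 (adjusted p = 0.043) in induced cells and by 0.92 (adjusted p = 0.0251) in uninduced cells, and SMAD4 fell by 1.20 in induced cells (adjusted p = 0.00405).

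The GC content of the start window was set beside the 5' difference. Counted over 300 bases, from 250 before to 50 after the annotated start, SMAD2 and TGFBR1 had 78.7% GC, BMPR2 76.7%, ACVR1 76.3%, SMAD5 72.0%, SMAD4 66.7% and BMPR1A 50.3%, while RUNX2 had 42.7%, TGFBR2 42.3% and ACVR2A 41.3%. The order was not the same: SMAD4 had the largest difference with the sixth highest GC content, and BMPR2, among the richest, had a smaller difference than RUNX2, among the poorest. Pearson's r between GC content and the 5' difference was 0.69 and Spearman's rho 0.63 over the 10 members. Over all 11300 genes they were 0.07 and 0.06, and the median 5' difference was 0.39 in the 2785 genes with a GC content of at least 72.0% and 0.27 in the 2835 with at most 57.7%. These correlations run across genes of the same arrays, genes are not independent replicates, and the part of base composition was not tested.

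The other genes of the pathway were read from 6 lists, counted over both kinds of cell in the deposited values, where 29.8% of all genes were called lower and 14.2% higher. Among 12 other receptors and co-receptors 3 fell and 2 rose, with a median change of 0.06. The activin receptors ACVR2B (-0.81, adjusted p = 0.00317) and ACVR1B (-0.71, adjusted p = 0.01) and the pseudoreceptor BAMBI (-0.68, adjusted p = 0.0152) fell. BAMBI did not pass with the median of probe sets (adjusted p = 0.0761), ACVR1B with no filter on dim probe sets (adjusted p = 0.0502) or ACVR2B with its own spread (adjusted p = 0.0675). RGMA, a BMP co-receptor and the gene with the second smallest p for induction without Xrn1 after ACVR1B, changed with induction by -0.72 (adjusted p = 0.142), and ACVR1B by -0.75 (adjusted p = 0.132), and neither passed. Without untreated replicate 3 of the induced cells both did, with an adjusted p of 0.0136 for RGMA and 0.0177 for ACVR1B, and both did with array weights.

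Among 26 ligands 6 fell and 6 rose, with a median change of 0.32. BMP5 (-1.47, adjusted p = 1.34e-08), TGFB2 (-1.44, adjusted p = 2.87e-08) and BMP4 (-1.16, adjusted p = 9.49e-06) fell, with changes of -0.79 for TGFB2, which passed, and -0.35 (adjusted p = 0.103) for BMP4 under cyclic loess between arrays. Among 18 extracellular antagonists and latency proteins 4 fell and 2 rose, with a median change of 0.16. THBS1, a matrix protein that can activate latent TGF-beta, averaged 7.0 ± 0.44 in induced Xrn1 arrays and 9.55 ± 0.10 in untreated ones (SD, n = 3 each), and 7.05 ± 0.24 and 10.2 ± 0.32 in uninduced cells. It fell by 2.83 over both (adjusted p = 2.96e-29), and FSTL1 (-1.36, adjusted p = 1.65e-07) and LTBP1 (-1.10, adjusted p = 3.24e-05), which holds latent TGF-beta in the matrix, fell as well. Under cyclic loess the changes were -0.95 for THBS1 and -0.66 for LTBP1, which passed, and -0.22 for FSTL1, which did not (adjusted p = 0.328).

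Among 25 other SMADs and intracellular regulators 16 fell and 3 rose, with a median change of -0.86. SMURF2, a ubiquitin ligase that targets SMADs and receptors, averaged 3.41 ± 0.29 in induced Xrn1 arrays and 5.41 ± 0.69 in untreated ones, and 3.10 ± 0.40 and 6.22 ± 0.12 in uninduced cells (SD, n = 3 each). It fell by 2.56 over both (adjusted p = 3.36e-24). STRAP, which binds TGF-beta receptors, fell by 2.44 (adjusted p = 4.66e-22) and TAB2, an adaptor of the kinase TAK1, by 2.16 (adjusted p = 1.41e-17). Among 17 target genes 6 fell and 5 rose, with a median of 0.19. KLF10 (-1.49, adjusted p = 7.94e-09), PMEPA1 (-1.45, adjusted p = 2.13e-08) and CCN2 (-1.10, adjusted p = 3.07e-05) fell. With cyclic loess between arrays the change was -0.01 (adjusted p = 0.958) for PMEPA1 and 0.27 (adjusted p = 0.256) for CCN2, and neither passed.

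Among 17 RUNX partners and osteoblast genes 5 fell and 3 rose, with a median of 0.25. CBFB, the partner that stabilises RUNX proteins on DNA, fell by 2.07 (adjusted p = 3.85e-16), and the matrix protein gene SPARC fell by 1.73 (adjusted p = 1.19e-11). TWIST1, a transcription factor that restrains RUNX2, rose by 0.89 (adjusted p = 0.00103). The SPARC change was -0.08 (adjusted p = 0.724) under cyclic loess, and that of TWIST1 was 0.52 (adjusted p = 0.14) with the median of probe sets and 0.46 (adjusted p = 0.094) with no filter on dim probe sets. No gene of these 6 lists passed for induction, with or without Xrn1.

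The genes of these lists with the smallest p for induction in untreated RNA were BMP10 (1.05) and BMP7 (-0.97) among ligands, and NOG (-0.97) and LTBP2 (-0.95) among antagonists and latency proteins, where NOG encodes the BMP antagonist noggin. They were USP15 (-1.07), a deubiquitinase acting on SMADs and receptors, and TGIF2 (-1.06), a corepressor, among intracellular regulators, and JUNB (-0.93) and ID1 (-0.92) among targets. Among RUNX partners and osteoblast genes they were SPP1 (1.09), the gene of osteopontin, and RUNX1 (-0.87). None of these 10 passed, with an adjusted p of 0.112 for RUNX1 and 0.11 for each of the others, and with segments normalised each had an adjusted p of at least 0.509. All 10 passed without untreated replicate 3 of the induced cells (adjusted p between 0.00747 and 0.0183) and with array weights (between 0.00635 and 0.016).

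With segments normalised, where 36.1% of all genes were called lower and 30.6% higher, the counts of genes lower and higher were 4 and 4 for receptors, 6 and 11 for ligands, 5 and 8 for antagonists, 17 and 5 for intracellular regulators, 6 and 6 for targets and 6 and 6 for RUNX partners.

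Members were also set against all other genes by the correlation of their gene values over the 12 arrays. The genes most like BMPR1A were SMU1 (Pearson r 0.995) and DDX3X (0.994), those most like TGFBR1 were CCDC47 (0.998) and ZWILCH (0.997), and those most like BMPR2 were PDS5A and ECT2 (both 0.997). SMAD2 was most like ARFGAP3 (0.996) and PYGL (0.995), SMAD4 like GNE and TOP1 (both 0.997), and SMAD5 like VPS8 (0.993) and PHAX (0.992). ACVR1 was most like SUN1 and EXOC4 (both 0.994), ACVR2A like ATP8B2 and MYO10 (both 0.996), TGFBR2 like TRIO (0.986) and WWTR1 (0.983), and RUNX2 like DDX41 (0.972) and SPEN (0.969). For each member all of the 20 most similar genes lay in its own segment of the table. Among the members themselves, r had a median of 0.94 over the 21 pairs within a segment and of 0.72 over the 24 pairs across segments. With segments normalised these medians were 0.95 and 0.94. All of these values come from the same 12 arrays and 4 groups and are a description.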

How the data were processed

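The authors measured RNA on 12 human exon arrays, 3 in each of 4 groups, and deposited 1 table of log2 values for 1411399 probe sets. Per the submitters' processing notes, which name RMA and oligo, the authors made these log2 values by robust multi-array averaging, so background correction, normalisation and summary of the probes were done before deposit. The annotation behind the gene symbols is not given in the sources used here. Every column was mapped by the sample identifier that heads it. The Xrn1 array CM1X carries a replicate number in its title that differs from its CM number, and replicates are numbered here by CM number within each group.

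Symbols were updated through RefSeq gene names: 16472 of the 19560 were current, 2966 were updated and 122 kept as deposited. Probe sets with several symbols were left out, 1 of them shared by ELAC1 and SMAD4. A gene value is the mean log2 value of the probe sets with a mean above 2.04, for genes with at least 3 of them. Contrasts between the 4 group means were tested with lmFit and eBayes in limma 3.58.1 (R 4.3.3), with Benjamini-Hochberg adjustment over all 16883 genes and a threshold of 0.05. The prior degrees of freedom were infinite, so every gene was tested with a common SD of 0.42, which gave a standard error of 0.34 for a change within induced or uninduced cells, of 0.24 for the mean of both and of 0.48 for their difference. With segments normalised the prior degrees of freedom were 13.1 and the prior SD 0.25. The number of arrays limits the precision.

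The order of probe sets from the 5' end was taken from their numbers and the strand of the gene, which was checked on 14402 genes in 44 sets of chromosome and strand (rank correlation of number and annotated position between 0.89 and 1.0). The 5' part, the first of 3 equal parts of a gene's probe sets, was set against the rest for the 11300 genes with at least 6 probe sets above the limit.

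The genes named beside the members are, in each list, the 3 with the smallest p for the average Xrn1 effect and the 2 with the smallest p for induction without Xrn1, and for each member the 2 genes with the highest correlation. The members and lists were chosen with earlier results of these data known. Some genes of the lists are not reported here. The fits were also run on simulated data with independent noise of the same SD for every gene and no shift of arrays. That run does not bear on calls in a table with such a break. Alternatives changed the summary of probe sets, the filters, the scaling, the prior, array weights, the groups in the fit, a replicate block and the samples. Chosen after the data were seen were the segment settings, the fit without the 5' part, the alternatives of the 5' comparison and the fit of BMPR1A without 8 probe sets. Figures were drawn with matplotlib 3.10.9.

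Deviations from the group means were correlated over all genes between samples with the same CM number or the same replicate number. The correlation lay between -0.71 and 0.13 in the deposited values and between -0.53 and 0.21 with segments normalised. The lowest, -0.71, is that of CM5 and CM5X, which the break moved in opposite directions, so it cannot decide whether they are paired. With segments normalised, pairs by CM number lay between -0.44 and 0.09. The numbers are not taken to pair the samples in the main fits.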

Additional observations from a re-analysis of the deposited data

Results flagged for a closer look

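The difference between the Xrn1 effects in induced and uninduced cells passed the test for 1 of the 10 members and for 12 other named genes, against 21.8% of all genes in either direction. Of the 12, all but KLF10 were named for a small p for induction in untreated RNA, whose arrays also enter this difference, so their count is no separate support. Each value is the Xrn1 change in induced cells minus that in uninduced cells (log2, deposited values), followed by the value with both table segments quantile normalised.

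SMAD4 had 1.58 (adjusted p = 0.0217) and then 0.70 (adjusted p = 0.213). Among receptors and co-receptors, ACVR1B had 1.36 and then 0.43, and RGMA had 1.25 and then 0.30. Among ligands, BMP7 had 2.08 (adjusted p = 0.00514), the largest of these, and then 1.08 (adjusted p = 0.0983), while BMP10 had -1.69 and then -0.82. Among antagonists and latency proteins, NOG had 1.49 and then 0.60, and LTBP2 had 1.31 and then 0.39. Among intracellular regulators, USP15 had 1.57 and then 0.72, and TGIF2 had 1.53 and then 0.57. Among targets, KLF10 had 1.34 and then 0.42, and JUNB had 1.73 and then 0.70. Among RUNX partners and osteoblast genes, RUNX1 had 1.50 and then 0.69, and SPP1 had -1.70 and then -1.0. The 11 genes with a positive difference lie in the second table segment, and BMP10 and SPP1, with a negative one, lie in the first. The median difference of all genes was 1.11 in the second segment and -0.38 in the first. None of the 13 passed with segments normalised. The part of the table break in these differences was not tested beyond that. Groups of 3 arrays are too small for a test of single outlying samples.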

How the results depend on the processing

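All Xrn1 changes of the 10 members kept their negative direction in every alternative. With the own spread of each gene, members called numbered 3 (8 as reported) in induced cells and 5 (8) in uninduced cells, and genes called in induced cells numbered 1492 (6643). With arrays centred on the median gene, members called in uninduced cells numbered 5. Genes called for the average Xrn1 effect numbered 11265 (7422) with segments quantile normalised.

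For induction without Xrn1 (0 members and 7 genes called), array weights, whose estimation stopped before converging, called 2 members and 5390 genes. Genes called numbered 37 with 1 probe set per gene, 18 with arrays centred and 1 with the replicate block. They numbered 0 with the median of probe sets, the upper quartile filter, cyclic loess, the own spread, the samples without CM5 and CM5X, all 5 segment settings, the fit without the 5' part and only the groups compared. For induction with Xrn1 (10 genes), they numbered 6 with the median, 4 with the upper quartile filter, 4 with arrays centred, 5 with loess, 0 with the own spread, 257 with array weights, 0 without CM5 and CM5X and 1034 with only the groups compared. With segments centred they numbered 3. With segments quantile normalised they numbered 0 with the own spread, 6 without CM5 and CM5X and 0 with the replicate block.

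For the difference of the Xrn1 effects (1 member, SMAD4, and 3687 genes), members called numbered 2 with no filter, 3 with array weights and 0 with arrays centred, loess, the own spread, the replicate block, the samples without CM5 and CM5X and all 5 segment settings. Genes called numbered 1465 with the median, 1165 with the upper quartile filter, 2360 with 1 probe set per gene, 1856 with arrays centred, 423 with loess, 0 with the own spread, 7229 with array weights, 145 with the replicate block, 1 without CM5 and CM5X and 2404 without the 5' part. They numbered 5 with segments centred and 22 with segments quantile normalised, and under that normalisation 0 with the own spread, 8 without CM5 and CM5X and 12 with the replicate block. CCN2 reversed in the average Xrn1 effect, with 0.27 under cyclic loess and -1.10 as reported. The cause of these shifts was not tested.

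Leaving out 1 array at a time, members called ranged from 6 to 8 in induced cells, 5 to 10 in uninduced cells, 9 to 10 on average, 0 to 2 for induction without Xrn1, 0 to 0 with Xrn1 and 0 to 2 for the difference. Genes called ranged from 2395 to 7979, 5144 to 7278, 5918 to 8613, 0 to 6922, 1 to 14 and 50 to 8400 in the same order. Members with a positive 5' difference ranged from 5 to 9 in induced cells, 6 to 8 in uninduced cells and 8 to 9 on average. The fewest genes in induced cells were called without induced untreated replicate 2, and the most for induction without Xrn1 and for the difference without induced untreated replicate 3.

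The replicate block left 8, 7 and 9 members called for the Xrn1 effects, and the calls it removed among the members were SMAD4 for the difference (1.58, adjusted p = 0.0671) and SMAD5 in uninduced cells (-0.85, adjusted p = 0.0702). Of the calls in uninduced cells, 18.6% were higher as reported, 47.8% with arrays centred, 50.02% with loess and 29.8% with segments quantile normalised. On average these shares were 32.2%, 52.3%, 50.8% and 45.8%. For the difference the median of all genes was 0.70 in the deposited values and 0.26 with segments quantile normalised, and for induction without Xrn1 it was -0.35 and -0.17. In induced cells 54.8% of calls were higher, against 42.9% with segments centred. For the difference 94.4% were higher, against 28.0% with arrays centred and 39.0% with loess. Over the 90 values of single named genes and up to 31 alternatives, 2515 kept direction and call, 67 lost the call, 75 gained one and 1 reversed.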
